A study of Mus musculus with 31 samples.

Results

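Fibroblast growth factors (FGFs) are secreted ligands, and 6 of their genes (Fgf4, Fgf5, Fgf8, Fgf10, Fgf15 and Fgf17) are described here with the genes of the 4 receptor tyrosine kinases they bind (Fgfr1, Fgfr2, Fgfr3 and Fgfr4). These 10 genes, of 18194 measured, were taken by their symbols. Each is represented by the probe set, annotated to that symbol alone, with the highest mean over all 31 Affymetrix arrays. The other 14 of their 24 probe sets are given with their gene, for some of the comparisons only. The arrays carried RNA of mouse induced pluripotent stem cells (iPSCs, day 0) and of embryoid bodies grown from them (day 11). Embryoid bodies are aggregates of stem cells that differentiate on their own.

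The embryoid bodies at day 11 were Nos3-/- (6 arrays) or control (9 arrays), and the iPSCs at day 0 were Nos3-/- (6 arrays) or control (10 arrays). Nos3 encodes endothelial nitric oxide synthase. The Nos3-/- cells came from strain B6.129P2-Nos3tm1unc/J and the control cells from wild-type CD1 mice, so effects of the deletion and of the strain cannot be told apart. All cells were made from fibroblasts of the tail tip of grown males, reprogrammed with Sendai virus, and the iPSCs were kept on inactivated mouse embryonic fibroblasts, whose RNA a day 0 sample can hold. The labels do not say whether arrays of a group came from separate lines or cultures, so each p-value reflects array-to-array spread, which may be technical, and the number of arrays limits the precision.

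The arrays were of similar overall brightness, with medians of 6.13 to 6.23 on the log2 scale. Replicate 3 of Nos3-/- was, on each day, the array least like its own group. Its mean correlation with that group, over all genes at 1 probe set each, was 0.9612 at day 11 and 0.9712 at day 0. The Nos3 probe set ran from 6.70 to 7.06 in Nos3-/- embryoid bodies and from 6.76 to 7.43 in control ones. In iPSCs it ran from 6.73 to 7.13 in the arrays labelled Nos3-/- and from 6.36 to 7.05 in control, so it was not lower at day 0. The position of its probes relative to the deleted part is unknown here, so this level checks no label. Pou5f1, a core pluripotency gene, was at 11.55 or more on every day 0 array. The mean of 10 pluripotency markers ran from 10.33 to 11.81 in control iPSCs. In Nos3-/- iPSCs it was at 9.69 in replicate 3 and at 11.74 or more in the rest. That replicate also held the highest mean of 5 definitive endoderm markers among the day 0 arrays (11.44).

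FGF ligands bind their receptors together with heparan sulfate, and the activated receptor signals mainly through the RAS-ERK cascade, which switches on its own inhibitors of the Sprouty and dual-specificity phosphatase families. In the early mouse embryo, Fgf4 is made by pluripotent cells and drives neighbouring cells toward primitive endoderm, and FGF signalling moves naive pluripotent cells toward the primed epiblast state, of which Fgf5 is a standard marker. Fgf8 is then needed in the primitive streak, and Fgf8 and Fgf10 act in the progenitors that build part of the heart.

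RefSeq promoter windows, from 250 bases before to 50 after a gene's start on build GRCm38.p6, were at hand for 6 of the 10 genes (Fgf4, Fgf5, Fgf10, Fgfr2, Fgfr3 and Fgfr4). Those of Fgf4, Fgf5 and Fgfr3 are shown, because these 3 genes differed between genotypes in embryoid bodies. Capitals mark the letters GGGCGG (a GC box), TATAAA and TATATA, searched on both strands, and the first base written lies 250 bases before the start. All 4 windows lie on the plus strand. Fgf4 is at chr7:144861136-144861435, Fgf5 at chr5:98253934-98254233, and the 2 annotated starts of Fgfr3 at chr5:33721474-33721773 and chr5:33722056-33722355.
Fgf4: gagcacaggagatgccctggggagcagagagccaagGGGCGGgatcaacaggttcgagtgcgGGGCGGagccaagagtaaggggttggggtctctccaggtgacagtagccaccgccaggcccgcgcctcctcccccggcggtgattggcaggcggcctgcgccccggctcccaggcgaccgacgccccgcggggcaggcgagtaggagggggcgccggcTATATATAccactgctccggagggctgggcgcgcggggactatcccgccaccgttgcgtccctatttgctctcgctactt
Fgf5: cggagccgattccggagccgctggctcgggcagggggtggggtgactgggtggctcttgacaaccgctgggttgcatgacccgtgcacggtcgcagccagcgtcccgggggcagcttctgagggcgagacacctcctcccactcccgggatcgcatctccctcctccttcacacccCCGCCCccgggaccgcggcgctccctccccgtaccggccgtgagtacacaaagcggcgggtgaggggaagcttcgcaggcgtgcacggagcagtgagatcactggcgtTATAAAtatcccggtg
Fgfr3, first start: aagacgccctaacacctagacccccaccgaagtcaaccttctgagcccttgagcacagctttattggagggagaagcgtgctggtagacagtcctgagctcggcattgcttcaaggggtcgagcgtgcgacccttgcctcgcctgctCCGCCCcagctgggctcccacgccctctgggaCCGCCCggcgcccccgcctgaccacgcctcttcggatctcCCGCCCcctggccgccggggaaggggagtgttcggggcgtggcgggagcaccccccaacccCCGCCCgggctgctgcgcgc
Fgfr3, second start: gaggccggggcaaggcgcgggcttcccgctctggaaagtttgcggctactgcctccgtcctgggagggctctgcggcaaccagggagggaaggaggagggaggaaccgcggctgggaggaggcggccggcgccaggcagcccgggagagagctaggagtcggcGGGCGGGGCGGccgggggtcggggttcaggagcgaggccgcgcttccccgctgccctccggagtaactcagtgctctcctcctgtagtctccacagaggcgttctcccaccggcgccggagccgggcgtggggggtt
The Fgf4 window holds 2 GC boxes and, from 30 bases before the start, a run of TATATATA that gives 2 overlapping matches. The Fgf5 window holds 1 GC box, 74 bases before the start, and its TATAAA lies 34 bases after the annotated start. The Fgfr3 windows hold 4 and 2 GC boxes and neither TATA form. Of all 32851 windows of this length, 35.7% hold GGGCGG, 13.6% TATAAA and 5.7% TATATA. The 4 windows are rich in CpG, with 28 in Fgf4, 29 in Fgf5, and 26 and 30 in Fgfr3, against a median of 7 over all windows. On chromosome 7 of this assembly, Fgf3, Fgf4 and Fgf15 are successive protein-coding genes, with a noncoding gene between Fgf4 and Fgf15. No binding or methylation was measured here, so these letters are a description only.

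**Figure D1:**
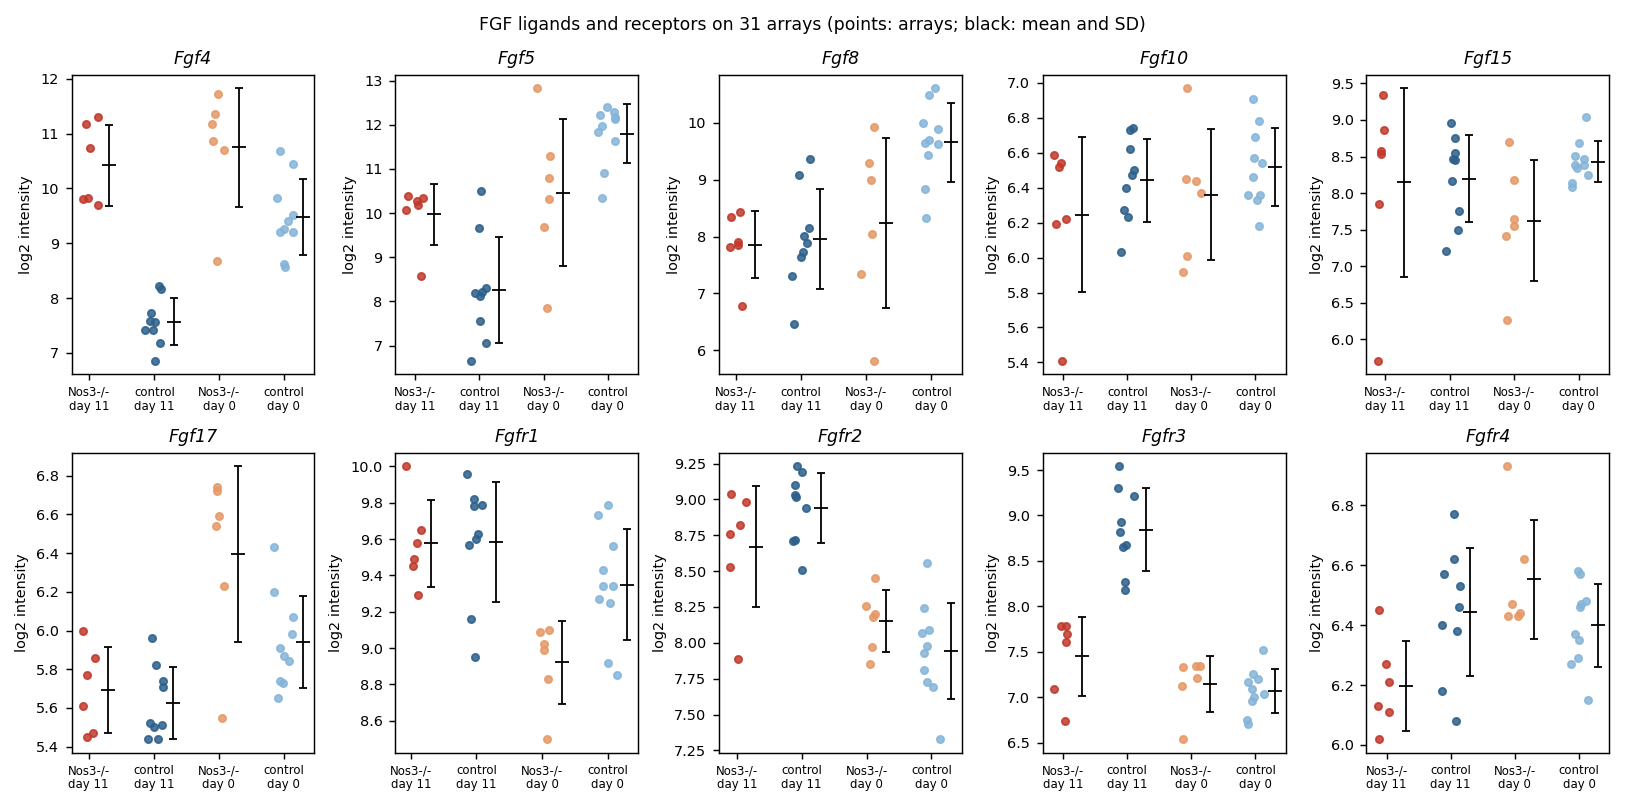
Levels of the 10 genes on the 31 arrays, as log2 intensity, in a panel for each gene. Points are arrays and black bars the mean and SD of each group. Fgf4 in Nos3-/- embryoid bodies (9.69 to 11.30) lies above every control embryoid body (6.86 to 8.23), and Fgfr3 in Nos3-/- embryoid bodies (6.74 to 7.78) lies below all of them (8.18 to 9.54).

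Fgf4, the ligand of pluripotent cells, was higher in Nos3-/- than in control on both days. At day 11 it was at 9.69, 10.28 and 11.30 (lowest, median and highest, log2 intensity) in Nos3-/- arrays, against 6.86, 7.56 and 8.23 in control. The ranges did not overlap, and the lowest Nos3-/- embryoid body still exceeded the highest control. At day 0 the level was 8.67, 11.02 and 11.72 in Nos3-/- iPSCs, against 8.57, 9.34 and 10.69 in control. Here the ranges overlapped, through Nos3-/- replicate 3 at 8.67, while the other 5 lay at 10.71 or above. By group mean the order was Nos3-/- iPSCs, Nos3-/- embryoid bodies, control iPSCs and control embryoid bodies. The first and second of these differed by 0.33, within their spread (SD up to 1.08), and the last stood 1.91 below its neighbour with no overlap.

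In limma's moderated test, fitted over all genes with Benjamini-Hochberg adjustment and a threshold of 0.05, Fgf4 was 7.22-fold higher in Nos3-/- embryoid bodies than in control (log2 difference 2.85, SE 0.37, adjusted p = 2.27e-06). In iPSCs it was 2.42-fold higher (1.27, SE 0.36, limma adjusted p = 0.0155). Over time it fell by 1.90 in control (SE 0.32, limma adjusted p = 2.60e-05), with no overlap between days, while in Nos3-/- the change was -0.33 (SE 0.40, limma adjusted p = 0.570). The difference between these 2 changes was 1.58 (SE 0.51) and missed the threshold (limma adjusted p = 0.117). The day 11 difference stayed between 2.68 and 3.00 when each of the 31 arrays was left out, and the day 0 call was lost without Nos3-/- replicate 5 (1.15, limma adjusted p = 0.0594).

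The probe sets of Fgf4 did not all show this. Besides the one used, with a day 11 difference of 2.85, others gave 2.76 and 0.56, and both passed (limma over all probe sets, adjusted p = 1.49e-06 and 0.00491). The last differed by 0.29 at day 11 (adjusted p = 0.531, limma over all probe sets) and by -0.40 at day 0, though it fell in control over time by 1.18 (adjusted p = 2.16e-05 in the same fit).

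Pluripotency markers moved in the same direction. In embryoid bodies, 6 of 10 were higher in Nos3-/- and none lower, and their mean ran from 9.57 to 11.87 in Nos3-/- and from 9.56 to 10.64 in control. Nanog was 1.25 higher on the log2 scale and Pou5f1 0.71 higher (limma adjusted p = 0.0176 and 0.0143). Within the range of that mean shared by both genotypes, the 2 Nos3-/- embryoid bodies had Fgf4 at 9.81 and 9.82, while the 8 control ones lay between 6.86 and 8.23. The one at 9.81 is replicate 3, the array least like its group. Such small numbers cannot compare the genotypes at like marker levels. In iPSCs, 3 of 10 markers were higher in Nos3-/- and none lower. The part of these markers in the Fgf4 difference was not tested on either day. In bulk RNA, fewer cells of a type and less RNA per cell cannot be told apart.

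**Figure D2:**
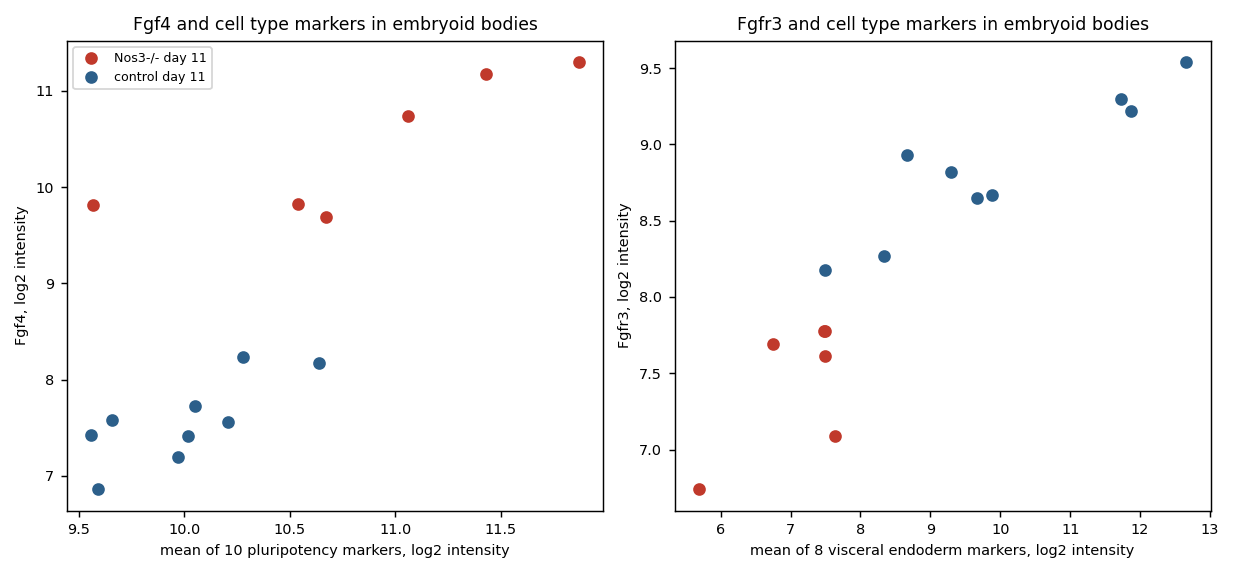
Embryoid bodies at day 11, a point per array and both axes in log2 intensity. Left, Fgf4 against the mean of 10 pluripotency markers: Nos3-/- points lie above control points on the vertical axis. The 2 Nos3-/- arrays within the marker range shared by both genotypes are at 9.81 and 9.82. Right, Fgfr3 against the mean of 8 visceral endoderm markers: the Nos3-/- points lie at 7.64 or below on the horizontal axis and the control points at 7.50 or above.

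Fgf5, the marker ligand of primed epiblast, took a different course. In embryoid bodies it was at 8.57, 10.24 and 10.39 in Nos3-/-, against 6.66, 8.20 and 10.51 in control. Of the Nos3-/- arrays, 5 lay tightly between 10.06 and 10.39, and replicate 3 stood below them at 8.57. In iPSCs it was at 7.85, 10.56 and 12.83 in Nos3-/-, against 10.35, 12.06 and 12.41 in control. The Nos3-/- iPSCs were thus the most scattered group, with an SD of 1.67 against 0.67 in control. By group mean the order was control iPSCs, Nos3-/- iPSCs, Nos3-/- embryoid bodies and control embryoid bodies, and neighbours in it overlapped throughout.

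In control, Fgf5 fell by 3.54 on the log2 scale (SE 0.48, limma adjusted p = 1.04e-06), the largest change over time among the 10 genes, and changed by -0.49 in Nos3-/- (SE 0.60, limma adjusted p = 0.566). The difference between these changes was 3.05 (SE 0.76) and passed (limma adjusted p = 0.0423). In embryoid bodies Fgf5 was 3.29-fold higher in Nos3-/- (1.72, SE 0.55, limma adjusted p = 0.0420). In iPSCs the difference was -1.33 (SE 0.54, limma adjusted p = 0.0860). Of 5 other epiblast markers, 2 rose and 3 fell over time in control, and 2 rose and none fell in Nos3-/-. Between genotypes 1 was higher in Nos3-/- embryoid bodies and none lower, and none passed in iPSCs. Their part in the Fgf5 differences was not tested.

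Only the fall in control was steady for Fgf5, passing in all 31 omissions of an array. The day 11 call was lost in 12 omissions, of every Nos3-/- day 11 array but replicate 3 and of every control day 11 array but replicates 2 and 6 (limma adjusted p up to 0.0892), and the call on the difference of changes in 22 (up to 0.0932). Without replicate 3 of the Nos3-/- iPSCs, which held the highest Fgf5 (12.83) and the lowest Fgf4 (8.67) of its group, the day 0 difference was -1.80 and passed (limma adjusted p = 0.0113), and without replicate 5, which held the lowest Fgf5 (7.85), it was -0.81 and did not (0.350). The second Fgf5 probe set fell in control by 3.02 (adjusted p = 3.23e-07, limma over all probe sets) and missed the threshold for the day 11 difference (1.14, adjusted p = 0.105) and for the difference of changes (2.33, adjusted p = 0.0600). In the same fit, the probe set used also missed it for the difference of changes (adjusted p = 0.05001, limma over all probe sets).

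Fgf8, a ligand of the primitive streak, fell over time in control and was lower in Nos3-/- iPSCs than in control ones. Its levels in embryoid bodies were 6.78, 7.89 and 8.44 in Nos3-/-, against 6.46, 7.89 and 9.36 in control. At day 0 its levels were 5.82, 8.52 and 9.92 in Nos3-/-, against 8.32, 9.68 and 10.61 in control. The embryoid bodies of both genotypes thus overlapped almost fully, and in iPSCs 3 Nos3-/- arrays lay below every control array.

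Fgf8 was 1.42 lower on the log2 scale in Nos3-/- iPSCs (SE 0.46, limma adjusted p = 0.0323), and the day 11 difference was -0.10, with an interval of -1.06 to 0.85. It fell in control by 1.70 (SE 0.41, limma adjusted p = 0.00165) and changed by -0.38 in Nos3-/- (SE 0.51, limma adjusted p = 0.609). The day 0 call was lost in 5 omissions, of Nos3-/- replicates 1, 2 and 5 and control replicates 3 and 10 (limma adjusted p up to 0.115), while the fall in control passed in all 31. In the same iPSCs, 4 of 7 primitive streak markers and 4 of 5 definitive endoderm markers were lower in Nos3-/- and none higher. The mean of the primitive streak markers ran from 5.74 to 8.49 in Nos3-/- and from 7.26 to 8.68 in control, and their part in the Fgf8 difference was not tested.

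**Figure D3:**
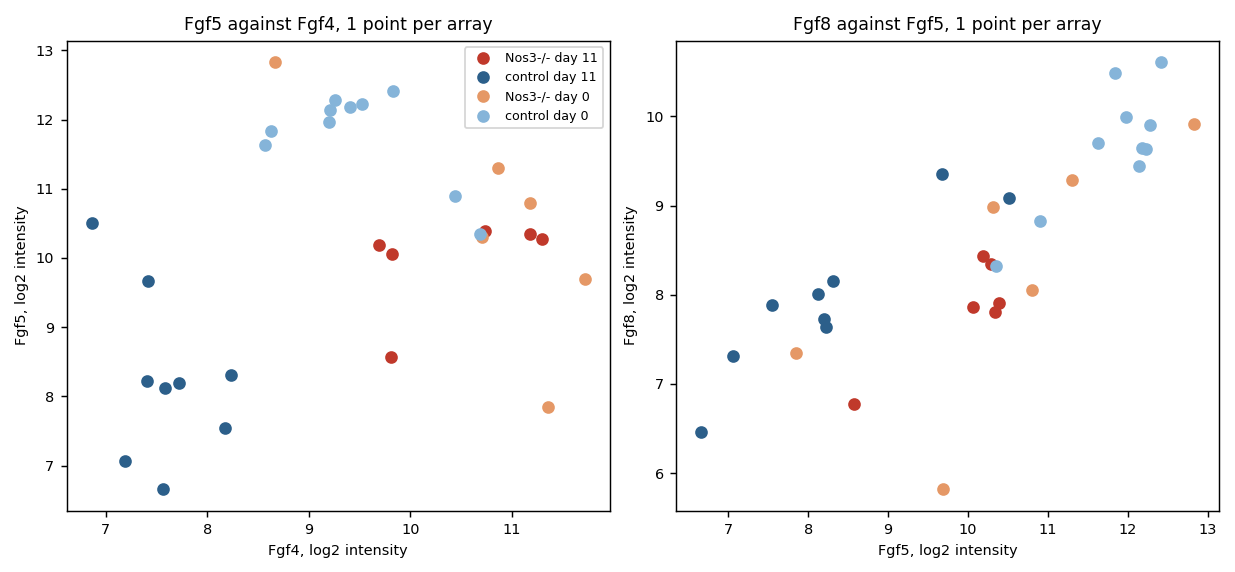
Fgf5 against Fgf4 (left) and Fgf8 against Fgf5 (right), a point per array, both axes in log2 intensity, coloured by group. Control embryoid bodies sit at low Fgf4 (6.86 to 8.23), Nos3-/- embryoid bodies at high Fgf4 (9.69 to 11.30), and the Nos3-/- iPSC array with the highest Fgf5 (12.83) has the lowest Fgf4 of its group (8.67).

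Fgf17, a close relative of Fgf8, was dim on this array. In embryoid bodies it was at 5.45, 5.69 and 6.00 in Nos3-/-, against 5.44, 5.52 and 5.96 in control. In iPSCs it was at 5.55, 6.57 and 6.74 in Nos3-/-, against 5.65, 5.89 and 6.43 in control. Replicate 3 of the Nos3-/- iPSCs, at 5.55, was below every control iPSC array, and 4 of the other 5 were above every one of them. It was 1.37-fold higher in Nos3-/- iPSCs (0.45, SE 0.14, limma adjusted p = 0.0247), a call lost without Nos3-/- replicate 2, 4, 5 or 6 (limma adjusted p up to 0.0990). It fell over time by 0.70 in Nos3-/- (SE 0.16, limma adjusted p = 0.00114) and by 0.32 in control (SE 0.12, limma adjusted p = 0.0477). The fall in Nos3-/- passed in all 31 omissions of an array, and the fall in control was lost in 17, of arrays of both genotypes and days (limma adjusted p up to 0.0984). A second probe set also fell in both, by 1.03 in Nos3-/- and by 0.81 in control (adjusted p = 0.00494 and 0.00433, limma over all probe sets). Its day 0 difference between genotypes, 0.59, missed the threshold (adjusted p = 0.115 in the same fit).

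Fgf15, the mouse counterpart of human FGF19 and a gut hormone that restrains bile acid synthesis, passed in no comparison. In embryoid bodies it was at 5.71, 8.56 and 9.34 in Nos3-/-, against 7.21, 8.45 and 8.96 in control. In iPSCs it was at 6.26, 7.60 and 8.70 in Nos3-/-, against 8.08, 8.39 and 9.04 in control. Replicate 3 of the Nos3-/- embryoid bodies, at 5.71, lay well below the other 5, which were at 7.85 or above. Without that array 2 differences passed, a rise over time in Nos3-/- (1.01, limma adjusted p = 0.0164) and a lower level in Nos3-/- iPSCs (limma adjusted p = 0.0378), against 0.52 and -0.81 with it (limma adjusted p = 0.356 and 0.136).

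Fgf10, a mesenchymal ligand that drives branching of epithelia such as the lung, stayed within 5.41 to 6.97 on all arrays and passed in no comparison, with or without any 1 array. Its day 11 difference between genotypes was -0.20 with an interval of -0.52 to 0.13. The day 0 difference was -0.16 with an interval of -0.48 to 0.16.

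Of the receptors, Fgfr3, known as a brake on bone growth, separated the genotypes. In embryoid bodies it was at 6.74, 7.65 and 7.78 in Nos3-/-, against 8.18, 8.82 and 9.54 in control. At day 0 its levels were 6.54, 7.27 and 7.34 in Nos3-/-, against 6.70, 7.07 and 7.52 in control. The groups overlapped at day 0 and did not at day 11, when each control embryoid body exceeded each Nos3-/- one. Below control embryoid bodies the order by mean was Nos3-/- embryoid bodies, Nos3-/- iPSCs and control iPSCs, with steps of 0.30 and 0.08 that lay within the spread (SD up to 0.43 and 0.31).

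Fgfr3 was 1.39 lower on the log2 scale in Nos3-/- embryoid bodies (SE 0.19, limma adjusted p = 4.25e-06), and the day 0 difference was 0.08 (SE 0.18, limma adjusted p = 0.823). It rose 3.42-fold over time in control (1.77, SE 0.16, limma adjusted p = 9.84e-10), with no overlap between days, and changed by 0.30 in Nos3-/- (SE 0.20, limma adjusted p = 0.271). The difference between these changes was -1.47 (SE 0.26, limma adjusted p = 0.00411). These 3 calls passed in all 31 omissions of an array. The second Fgfr3 probe set was 0.28 lower in Nos3-/- embryoid bodies (adjusted p = 0.0420, limma over all probe sets), and its rise in control of 0.12 missed the threshold (adjusted p = 0.228 in the same fit).

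Visceral endoderm markers moved with Fgfr3. All 8 were lower in Nos3-/- embryoid bodies, and all 8 rose over time in control. Afp, a fetal serum protein of this layer, was 3.84 lower and Ttr, a thyroid hormone carrier, 2.44 lower on the log2 scale (limma adjusted p = 0.000362 and 0.00348). Their mean ran from 5.69 to 7.64 in Nos3-/- embryoid bodies and from 7.50 to 12.66 in control. The ranges of the genotypes thus met only between 7.50 and 7.64, where 2 Nos3-/- arrays had Fgfr3 at 7.09 and 7.61 and the single control array had it at 8.18. These arrays are too few to compare the genotypes at like marker levels. The part of the visceral endoderm markers in the Fgfr3 difference was not tested. Fibroblast markers were also lower in Nos3-/- embryoid bodies, 7 of 11, with a mean of 7.43 to 8.36 against 8.39 to 10.06 in control. With that mean as a covariate among the day 11 arrays, Fgfr3 was still 1.33 lower on the log2 scale but no longer passed (limma adjusted p = 0.176). Fgf4 passed at 2.62 (limma adjusted p = 0.0243), and Fgf5 was at 0.96 and did not pass (limma adjusted p = 0.748). Over all 18194 genes, 204 passed with this covariate and 1764 without it.

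Fgfr2, an epithelial receptor that also acts in primitive endoderm, rose over time in both genotypes. Its levels in embryoid bodies were 7.89, 8.79 and 9.04 in Nos3-/-, against 8.51, 9.02 and 9.23 in control. At day 0 its levels were 7.85, 8.19 and 8.45 in Nos3-/-, against 7.33, 7.96 and 8.56 in control. It rose 1.43-fold in Nos3-/- (0.52, SE 0.17, limma adjusted p = 0.0235) and 1.99-fold in control (1.00, SE 0.14, limma adjusted p = 1.74e-06). The difference between the rises, -0.48 (SE 0.22), missed the threshold (limma adjusted p = 0.267). The rise in control passed in all omissions, and that in Nos3-/- was lost without Nos3-/- replicate 5 of day 0 or replicate 1, 2 or 5 of day 11 (limma adjusted p up to 0.0673). Another Fgfr2 probe set rose by 0.52 in Nos3-/- and 0.63 in control (adjusted p = 0.00593 and 5.20e-05, limma over all probe sets). A dimmer one did not rise (-0.05 and -0.02, adjusted p = 0.734 and 0.870 in the same fit).

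Fgfr1, the receptor of epiblast and mesenchyme, rose 1.57-fold in Nos3-/- (0.66, SE 0.16, limma adjusted p = 0.00303) to 9.29, 9.54 and 10.00 in embryoid bodies, against 8.50, 9.01 and 9.10 in iPSCs. The days did not overlap, and the call held in all 31 omissions. In control it was at 8.95, 9.63 and 9.96 in embryoid bodies and at 8.85, 9.34 and 9.79 in iPSCs, a change of 0.24 that missed the threshold (limma adjusted p = 0.161). The genotypes differed at day 0, where Fgfr1 was 0.43 lower in Nos3-/- (SE 0.15, limma adjusted p = 0.0415), and at day 11 the difference was -0.01, with an interval of -0.31 to 0.29. The day 0 call was lost in 8 omissions, of Nos3-/- replicates 2, 5 and 6 and control replicates 2, 3, 6, 7 and 10 (limma adjusted p up to 0.159). In the fit over all probe sets, the one used missed the threshold at day 0 (limma adjusted p = 0.0517). So did the other Fgfr1 probe sets (-0.52 and -0.17, adjusted p = 0.0650 and 0.233), which rose over time in Nos3-/- (0.90 and 0.31, adjusted p = 0.00156 and 0.0228, same fit).

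Fgfr4, the receptor through which Fgf15 acts on liver, was dim at its main probe set, between 6.02 and 6.93 on all arrays. It fell by 0.36 over time in Nos3-/- (SE 0.10, limma adjusted p = 0.00985), to 6.02, 6.17 and 6.45 in embryoid bodies, against 6.43, 6.46 and 6.93 in iPSCs. In control it was at 6.08, 6.46 and 6.77 in embryoid bodies and at 6.15, 6.42 and 6.58 in iPSCs. Its 5 probe sets disagreed. One of the others rose over time in control by 0.83 and was 0.79 lower in Nos3-/- embryoid bodies (adjusted p = 0.00186 and 0.0279, limma over all probe sets), where the main one differed by -0.25 and did not pass (limma adjusted p = 0.102). The remaining ones changed over time in Nos3-/- by -0.21, -0.25 and 0.01 (adjusted p = 0.0416, 0.0522 and 0.951, limma over all probe sets). None of these remaining ones passed in control or between genotypes.

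**Figure D4:**
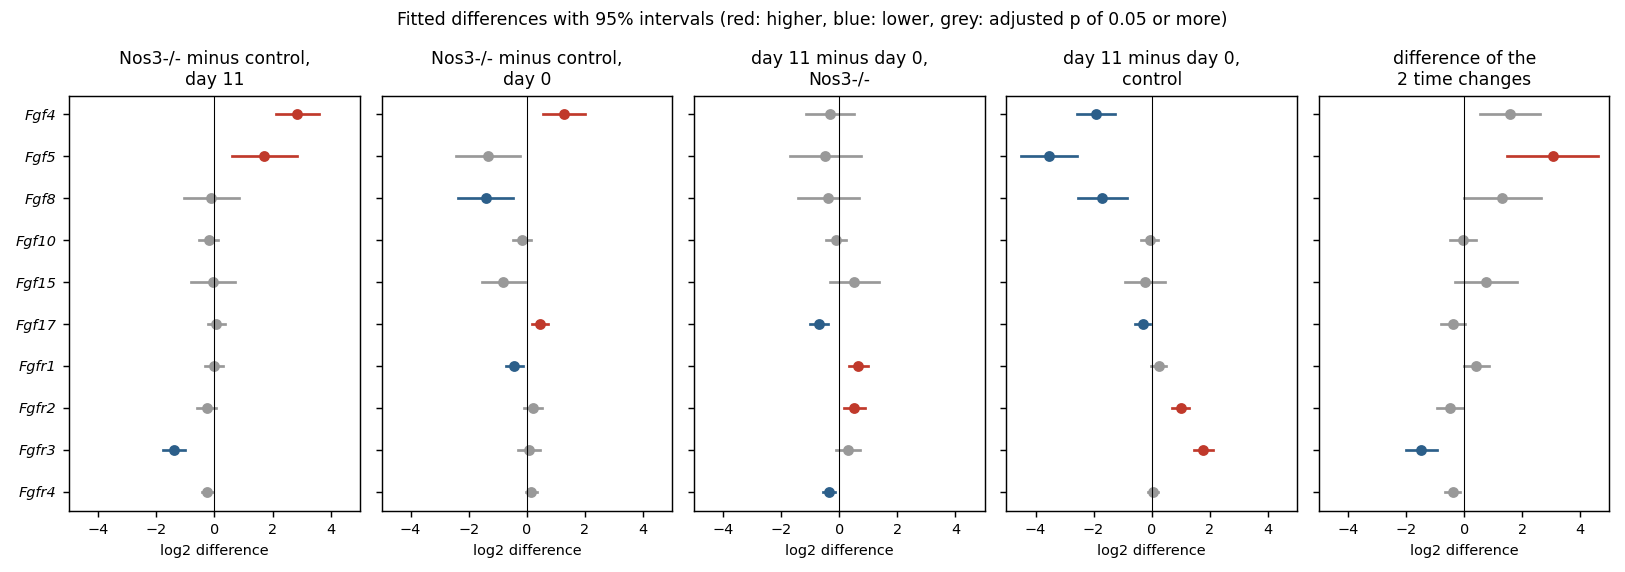
Log2 differences of the 10 genes in the 5 comparisons, with 95% intervals of the moderated fit. Red and blue points passed as higher and lower at an adjusted p under 0.05, and grey points did not. Fgf4 (2.85) and Fgfr3 (-1.39) stand farthest from 0, relative to their intervals, between Nos3-/- and control embryoid bodies.

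Counted together, 3 of the 10 genes passed between Nos3-/- and control embryoid bodies, where 9.70% of all genes did. Of these, 2 were higher (Fgf4 and Fgf5, beside 4.41% of all genes) and 1 was lower (Fgfr3, beside 5.29%). Between Nos3-/- and control iPSCs 4 passed, where 16.6% of all genes did, with Fgf4 and Fgf17 higher (9.17% of all genes) and Fgf8 and Fgfr1 lower (7.47%). Over time, 4 passed in Nos3-/- (Fgfr1 and Fgfr2 higher, Fgf17 and Fgfr4 lower), where 31.1% of all genes did, 13.0% higher and 18.1% lower. In control 6 passed (Fgfr2 and Fgfr3 higher, Fgf4, Fgf5, Fgf8 and Fgf17 lower), where 34.2% of all genes did, 16.0% higher and 18.2% lower. The changes differed between genotypes for 2 genes, Fgf5 and Fgfr3, beside 1.24% of all genes, 0.522% in the direction of Fgf5 and 0.715% in that of Fgfr3. Groups that did not overlap were Fgf4 and Fgfr3 between genotypes at day 11 (2.60% of all genes), Fgfr1 over time in Nos3-/- (7.83%), and Fgf4 and Fgfr3 over time in control (6.52%), and none of the 10 separated the genotypes in this way at day 0 (1.92%). In control, 4 of 6 ligands fell and none rose, while 2 of 4 receptors rose and none fell. In Nos3-/-, 1 ligand fell and none rose, 2 receptors rose and 1 fell. The median change in control was -1.01 over the 6 ligands and 0.62 over the 4 receptors, beside -0.03 over all genes. Comparisons that share a group are not independent, since they rest on the same arrays.

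Of 11 fibroblast markers, which feeder cells also express, 3 were lower in Nos3-/- iPSCs and 8 did not pass. Their mean ran from 8.99 to 10.19 in Nos3-/- and from 9.34 to 10.78 in control. With that mean as a covariate among the day 0 arrays, none of the 4 calls remained. Over all 18194 genes, 315 passed with this covariate and 3029 without it. Fgf4 was then at 0.66 (limma adjusted p = 0.632), Fgf17 at 0.16 (0.782), Fgf8 at -1.58 (0.344) and Fgfr1 at -0.14 (0.754).

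Within groups, the genes whose deviations from their group mean were most like those of a given FGF gene were sought over 31 arrays and 16244 genes by Pearson's r, a description that shares arrays throughout. For Fgf4 they were Kat6b (r = 0.92), Lrrc34 (0.90) and Msh6 (0.89). For Fgf5 they were Lrig3 (0.91), Il17rd (0.89) and Gsc (0.88), and for Fgf8 Gsc (0.90), Mycl (0.88) and Lhx1 (0.87). Il17rd encodes a membrane inhibitor of FGF signalling, and Gsc and Lhx1 are transcription factors of the primitive streak and its derivatives. For Fgfr3 they were Gpx3 (0.81), Ttr (0.80) and Spns2 (0.80), and Ttr is in the visceral endoderm list above. Fgf15 was most like Sf3a3 (0.91), Rrp1 (0.90) and Sf3a2 (0.88), which encode splicing and ribosome assembly factors. The closest genes of the remaining 5 were Rangrf for Fgf17 (0.83), Tnks1bp1 for Fgfr1 (0.81), Arhgap6 for Fgfr2 (0.79), Psen2 for Fgf10 (0.78) and Cetn1 for Fgfr4 (0.70).

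Other genes of the pathway were taken from 6 lists, of which 74 of 82 genes were measured. In Nos3-/- iPSCs 15 were lower and 2 higher than in control, 23.0% of the 74 beside 16.6% of all genes. Among 17 feedback and target genes, 4 fell and none rose, with a median difference of -0.37 beside 0.01 over all genes. Dusp4, a phosphatase that switches off ERK, was 1.24 lower on the log2 scale (SE 0.29), Spry4, a Sprouty inhibitor, 0.80 lower (SE 0.16) and Dusp5 0.67 lower (SE 0.18), with limma adjusted p = 0.00441, 0.00102 and 0.0121. The other 13 did not pass, among them Etv5 at 0.41 and Egr1 at -0.70 (limma adjusted p = 0.161 and 0.170). Of the 12 genes of heparan sulfate synthesis and editing, 5 fell and none rose. They include the chain-building Ext1 (-0.46, limma adjusted p = 0.0242) and the sulfotransferases Ndst2 (-0.39, 0.00179) and Hs3st3b1 (-1.38, 0.0138). Of the cell-surface partners, Sdc4, a syndecan that carries heparan sulfate, was 0.73 higher (SE 0.18, limma adjusted p = 0.00668). Fgf2, the ligand used to keep primed stem cells in culture, was 0.59 lower in Nos3-/- iPSCs (SE 0.18, limma adjusted p = 0.0253). The calls on Fgf2 and Ext1 were lost without Nos3-/- replicate 2 or 5 of day 0 (limma adjusted p up to 0.0768 and 0.112). Those on the other 6 passing genes named here held in all 31 omissions of an array. Over the 74 genes, 9 were lower without replicate 2 and 7 without replicate 5, while 26 were lower and 4 higher without the 2 arrays least like their groups. Of all 18194 genes, 3029 passed with all arrays, 1471 without replicate 5 and 4671 without these 2 arrays. With the mean of the fibroblast markers as a covariate among the day 0 arrays, none of the 74 passed, and of all 18194 genes 315 did. The differences of the 8 genes named here that passed without it were then -1.15 for Hs3st3b1, -0.88 for Dusp4, -0.62 for Spry4, -0.50 for Dusp5, -0.22 for Ndst2, -0.21 for Fgf2, -0.13 for Ext1 and 0.60 for Sdc4 (limma adjusted p from 0.205 to 0.819).

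In Nos3-/- embryoid bodies 3 of the 74 were higher and 4 lower than in control, 9.5% beside 9.70% of all genes, and none of the 17 feedback and target genes passed. Gpc4, a glypican that presents FGFs to their receptors, was at 10.36, 11.21 and 11.50 in Nos3-/- embryoid bodies, against 9.47, 9.81 and 10.29 in control. These groups did not overlap (1.19, SE 0.27, limma adjusted p = 0.00294), and with all arrays Gpc4 was the only gene of the 74 whose change over time differed between genotypes (1.87, SE 0.37, limma adjusted p = 0.0110). Without the 2 arrays least like their groups, 10 of the 74 passed in the direction of Gpc4 and 2 in the other, and with array weights 8 and 2 did. Calls over all 18194 genes rose too, from 225 to 1315 without these arrays and to 1590 with array weights. Sdc4 was again higher (0.74, SE 0.19, limma adjusted p = 0.00827), as was Sulf2, which trims sulfate from heparan chains (0.41, limma adjusted p = 0.0172). Klb, the co-receptor for Fgf15 with Fgfr4, was 1.81 lower (SE 0.51, limma adjusted p = 0.0193), at 5.39 to 5.82 in Nos3-/- and 5.78 to 9.98 in control. Fgf3, the neighbour of Fgf4 on chromosome 7, was 0.50 lower (SE 0.13, limma adjusted p = 0.00913) where Fgf4 was higher. The kinase gene Braf was 0.43 lower and the RAS activator Sos2 0.61 lower (limma adjusted p = 0.00867 and 0.0258). The call on Sos2 was lost without Nos3-/- replicate 1, 4, 5 or 6 of day 11 (limma adjusted p up to 0.108) and that on Sulf2 without replicate 1 (0.0512), and the others named here passed in all 31 omissions. With the fibroblast covariate among the day 11 arrays, which does not overlap between genotypes, Braf alone of the 74 passed (-0.73, limma adjusted p = 0.0301). Of all 18194 genes 204 did, and Gpc4 was at 1.30 (limma adjusted p = 0.0602). With only the 2 groups compared in the fit, 3 of the 74 were higher and 1 lower.

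Over time, 17 of the 74 rose and 5 fell in Nos3-/- (29.7%, beside 31.1% of all genes), and 9 rose and 17 fell in control (35.1%, beside 34.2%). Fgf7, a ligand made by fibroblasts for epithelia, fell by 3.56 in Nos3-/- and by 5.02 in control (limma adjusted p = 3.83e-07 and 6.45e-13). Fibroblast markers fell with it, 8 of 11 in Nos3-/- and 6 of 11 in control, where 2 rose, and their part in it was not tested. In Nos3-/- embryoid bodies 7 of 11 of these markers were lower than in control. The Fgf7 difference there was 1.11 in the other direction and missed the threshold (limma adjusted p = 0.0572). Gpc3 and Flrt3 rose in both genotypes, by 1.63 and 1.60 on the log2 scale in Nos3-/- and by 1.71 and 1.65 in control (limma adjusted p of 0.00621, 0.00334, 0.000331 and 0.000154). Braf rose in both as well, by 0.80 in Nos3-/- and 0.86 in control (limma adjusted p = 1.60e-05 and 3.24e-08). Among feedback and target genes, Dusp4 rose in Nos3-/- by 1.31 (SE 0.33, limma adjusted p = 0.00312), and in control Ccnd1, Myc and Egr1 fell by 1.38, 1.28 and 1.20 on the log2 scale (limma adjusted p = 3.39e-06, 6.73e-06 and 0.00325). Egr1, an immediate target of ERK, also fell in Nos3-/- (-1.13, SE 0.39, limma adjusted p = 0.0269), a call lost in 6 omissions, of Nos3-/- replicates 2, 3 and 4 of day 0 and 1, 5 and 6 of day 11 (limma adjusted p up to 0.0824). Ccnd1 fell in Nos3-/- too (-0.67, SE 0.25, limma adjusted p = 0.0438), a call lost in 8 omissions, of Nos3-/- replicates 1, 2 and 4 of day 0 and of every Nos3-/- array of day 11 but replicate 3 (up to 0.143). With only the 2 groups compared in the fit, 8 of the 74 rose and 2 fell in Nos3-/-. In Nos3-/-, 10 of the 74 rose without replicate 5 of day 0, where 3 fell. Without replicate 2 of day 0 or replicate 1 or 6 of day 11 just 1 fell, and without replicate 4 of day 0 there were 2.

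**Figure D5:**
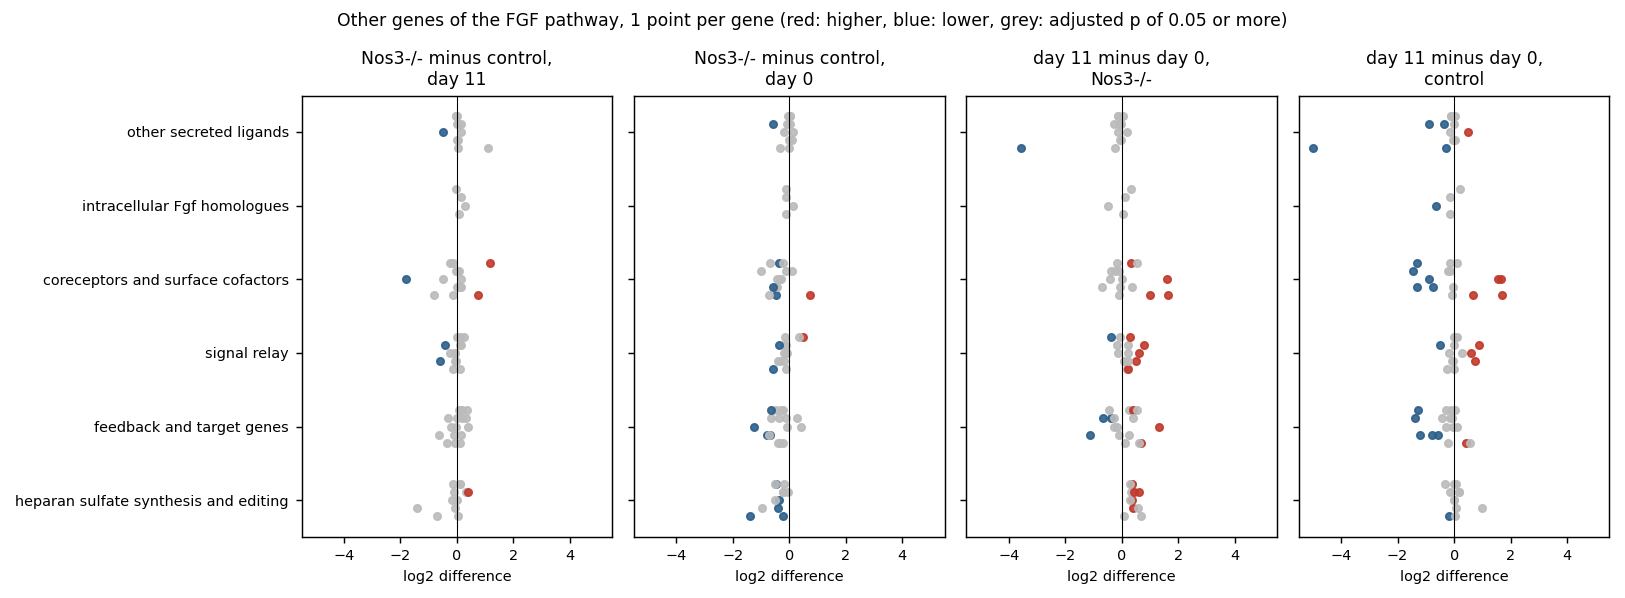
Log2 differences of the 74 other genes of the pathway by list, a point per gene, in 4 comparisons. Red and blue points passed as higher and lower and grey points did not. Blue points outnumber red ones between Nos3-/- and control iPSCs (15 against 2), and the far left point in both panels over time is Fgf7 (-3.56 in Nos3-/-, -5.02 in control).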

How the data were processed

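Gene expression was measured on 31 Affymetrix arrays. The authors deposited log2 intensities. RMA is the summary named, without a version, per the submitters' processing notes. The values, from 2.32 to 15.01, and array medians within 0.10 of each other were checked on the table of 45101 probe sets. No batch or scan date is given in the sources used here.

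Of the probe sets, 34958 carry 1 symbol in the platform table, 932 several and 9211 none, and 34754 of the first were matched by gene ID to RefSeq GRCm38.p6. The brightest probe set on average stood for each of 18194 genes. A mean per group was fitted on all 31 arrays with limma 3.58.1 in R 4.3.3 (27 residual and 2.80 prior degrees of freedom), with Benjamini-Hochberg adjustment over all genes and a threshold of 0.05. Probe sets other than the brightest were fitted over all 45101 and adjusted over these. Standard errors come from the moderated fit, and medians, ranges and SDs are over arrays.

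The genes named are the 10 FGF genes, Nos3, and, from each of 6 pathway lists and per comparison of 2 groups, up to 3 passing genes with the largest rises and 3 with the largest falls, and 2 bright ones that did not pass. From each of 12 marker lists (82 of 86 genes measured) up to 3 markers are allowed, and for each FGF gene the 3 most alike. Not all of these are printed. The genes, lists and tests were chosen with earlier results of these data known. Simulated data with known changes were used to check this fit. Alternatives were quantile normalization, median centring, 2 filters on dim genes, other probe set rules, array weights, a robust variance trend, only the groups compared, the replicate block, a fibroblast covariate and each array left out. Leaving out 2 arrays together and the fit of every probe set were chosen after seeing the data.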

Additional observations from a re-analysis of the deposited data

Results flagged for a closer look

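In 4 of 40 sets of a gene and a group, a single array lay far from the rest of its group. Chance gives about 1 in 20 for a single set, but the 40 sets share arrays and are not independent. They therefore measure no excess. In all 4 flagged sets the array was replicate 3 of a Nos3-/- group, the arrays least like their own groups. At day 11 it held Fgf5 at 8.57 and Fgf10 at 5.41, both the lowest of the group. At day 0 it held Fgf4 at 8.67 and Fgfr3 at 6.54, again the lowest. With these 2 arrays left out, Fgf4 was 2.98 higher on the log2 scale in Nos3-/- than in control embryoid bodies (limma adjusted p = 8.29e-08). In iPSCs it was then 1.69 higher, and Fgfr3 was 1.25 lower in embryoid bodies (limma adjusted p = 0.000189 and 7.23e-06). Leaving out an array chosen for its low Fgf4 raises its group's mean, so the larger day 0 difference is no separate support. That day 0 call was lost without Nos3-/- replicate 5 (limma adjusted p = 0.0594) and with the fibroblast covariate (0.632).

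The change over time differed between genotypes for Fgf5, by 3.05 on the log2 scale, and for Fgfr3, by -1.47 (limma adjusted p = 0.0423 and 0.00411). Without the same 2 arrays these were 3.80 and -1.45 (limma adjusted p = 0.00220 and 0.000656). The Fgf5 call was nevertheless lost in 22 of 31 omissions of a single array (limma adjusted p up to 0.0932). The Fgfr3 call passed in all 31.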

How the results depend on the processing

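No call on the 10 genes turned its direction under any alternative run. Single arrays left out gave 2 to 4 genes passing between genotypes in embryoid bodies (3 with all arrays), 0 to 5 in iPSCs (4), 3 to 5 over time in Nos3-/- (4), 5 to 6 in control (6) and 1 to 3 for the difference of changes (2). In iPSCs 0 passed without Nos3-/- replicate 5, and with the fibroblast covariate 0 passed in iPSCs and 1 in embryoid bodies, where that covariate does not overlap between genotypes. Array weights gave 4 for the difference of changes. Genes above the median level gave 2 over time in Nos3-/-, a filter that leaves dim FGF genes untested. Over all genes, calls in iPSCs (3029) came to 4671 without the 2 unlike arrays, 315 with the covariate, and 2012 or 1471 without Nos3-/- replicate 2 or 5. In embryoid bodies (1764) they came to 3939 with array weights, 204 with the covariate and 1121 above the median level. Over time, the fit on genes above the median level made 3756 calls in Nos3-/- (5658 on all genes) and 3835 in control (6227 on all genes), and only the groups compared gave 3679 in Nos3-/-. For the difference of changes (225) there were 1590 with array weights, 1315 without the 2 unlike arrays and 88 to 745 over single omissions. Outside single omissions, the Fgf4 call in iPSCs was lost with the mean of its probe sets (limma adjusted p = 0.0622), Fgf5 in embryoid bodies likewise (0.0557), and Fgfr1 in iPSCs with quantile normalization (0.0548), median centring (0.0502) or without _x_at and _s_at probe sets (0.0527). Fgf8 and Fgf17 in iPSCs were lost when only the groups compared were fitted (0.0653 and 0.0685), as was the Fgfr2 rise in Nos3-/- (0.0591). The Fgfr4 fall in Nos3-/- was lost with the mean of its probe sets (0.0872) and without _x_at and _s_at probe sets (-0.245, 0.49), which turns to another probe set. The causes were not tested.

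Same-numbered arrays did not consistently deviate together. In the 6 pairs of groups, 0 to 4 of 6 pairs, or 2 of 9, correlated above 0.1, from -0.427 to 0.49. Between control iPSCs and Nos3-/- embryoid bodies, 3 of 6 arrays matched their own number best. Between control iPSCs and control embryoid bodies 2 of 9 did, and in each other pair of groups 0 did. With the replicate block, 2 genes passed in iPSCs, where Fgf8 and Fgf17 did not (limma adjusted p = 0.0698 and 0.0935), nor did the Fgf17 fall in control (0.0570), and Fgf5 no longer passed in embryoid bodies (1.61, limma adjusted p = 0.125) or for the difference of changes (0.0802), where Fgf4 did (0.0499).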
